A study of Mus musculus with 32 samples.

Results

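Cell cycle and DNA replication genes were followed in mouse mesentery after intraperitoneal pristane (TMPD), a hydrocarbon oil that causes a lasting peritoneal inflammation. The 48 members were chosen by name. They comprise 14 genes of the replication machinery, 4 genes of G1/S control and 30 genes that act in mitosis, counting the G2/M cyclins, Cdk1 and Foxm1 with mitosis. Each gene was read from its brightest probe set annotated to that symbol alone, and 47 members had such a probe set. Probe sets were used where at least 3 arrays gave more than 103.7, the median of all deposited values, called the dim level here. With that filter 46 members were tested among 13016 genes. Ccnb1 had no probe set of its own in the annotation used, and the probe set of Tyms stayed below the dim level on all arrays.

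Each of 32 samples was hybridised to its own array (Affymetrix Mouse Genome 430 2.0). Treated mice received 0.5 ml of pristane, and mesentery was taken at day 3 or day 18. At day 3 there were 3 arrays each of BALB/c, DBA and their F1 hybrid (BALB/DBA F1), each with 3 arrays of untreated mice of the same strain. At day 18 there were 4 arrays of BALB/c with 4 untreated BALB/c controls and 3 arrays of DBA with 3 untreated DBA controls. The labels give no age. BALB/c is the strain in which pristane leads to plasmacytomas, and DBA is the resistant strain. The titles carry codes in 3 runs, one for the day 3 experiment (run 1), one for BALB/c at day 18 (run 2) and one for DBA at day 18 (run 3), and each treated group was compared with controls of its own run. Neither the meaning of the codes nor the number of animals behind a group is given, and the spread that enters every p-value is that between arrays, which may be technical in part. The title of 1 DBA control of run 3 joins 2 codes, and the titles of run 2 hold the word mix, with no statement on pooling.

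Cells entering the cycle build replication forks in S phase and a spindle in mitosis, and the genes for both sets of proteins are transcribed in waves. E2F factors, held back by retinoblastoma family proteins until G1 cyclin kinases act, switch on the S-phase wave. The later G2/M wave depends on MuvB complexes with B-Myb and FoxM1, which act through the CHR element, a short sequence near the start site. In a solid tissue such as mesentery most resident cells are at rest, and transcripts of these genes are a usual measure of how many cells are cycling.

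Promoter sequences from RefSeq (assembly GRCm38.p6) were available for 40 of the 48 members, 2 of them with more than 1 annotated start. Each window held 300 bases, from 250 before to 50 after the start. The windows of 2 replication members and 4 mitosis members are shown because they hold the words that were commoner in one set than in the other. Capitals mark matches on either strand to the E2F words TTTCCCGC, TTTGGCGC or TTTCGCGC, to the CHR words TTTGAA or TTCGAA, and to CCAAT, the word bound by NF-Y. Matches can overlap. Each sequence is printed 5′ to 3′ on the strand of its gene as the first 280 bases of the window.
Mcm5, chr8:75109259-75109538, plus strand: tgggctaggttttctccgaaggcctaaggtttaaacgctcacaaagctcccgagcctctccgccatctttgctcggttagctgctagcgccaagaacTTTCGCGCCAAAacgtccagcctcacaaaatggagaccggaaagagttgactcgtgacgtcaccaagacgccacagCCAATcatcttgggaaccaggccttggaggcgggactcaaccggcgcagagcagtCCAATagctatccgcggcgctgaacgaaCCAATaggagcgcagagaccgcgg
Mcm6, chr1:128359676-128359955, minus strand: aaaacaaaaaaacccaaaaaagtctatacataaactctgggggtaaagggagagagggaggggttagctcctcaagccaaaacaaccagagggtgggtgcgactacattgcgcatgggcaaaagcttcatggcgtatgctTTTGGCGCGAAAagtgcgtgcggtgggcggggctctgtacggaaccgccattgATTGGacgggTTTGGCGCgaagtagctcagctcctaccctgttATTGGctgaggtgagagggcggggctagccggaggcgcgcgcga
Cdk1, chr10:69352883-69353162, minus strand: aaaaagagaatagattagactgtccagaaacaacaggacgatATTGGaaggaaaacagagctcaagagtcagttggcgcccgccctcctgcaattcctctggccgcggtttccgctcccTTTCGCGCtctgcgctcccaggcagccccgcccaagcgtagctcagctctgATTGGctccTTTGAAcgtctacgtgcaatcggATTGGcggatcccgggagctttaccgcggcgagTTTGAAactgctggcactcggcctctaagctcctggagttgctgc
Ccnb2, chr9:70421525-70421804, minus strand: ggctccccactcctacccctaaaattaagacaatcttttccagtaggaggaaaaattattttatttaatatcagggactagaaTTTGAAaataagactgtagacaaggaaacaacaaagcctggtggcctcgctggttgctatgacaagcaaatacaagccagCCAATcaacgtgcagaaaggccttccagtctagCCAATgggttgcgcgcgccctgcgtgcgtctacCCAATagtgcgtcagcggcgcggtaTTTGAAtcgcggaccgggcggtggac
Cdc20, chr4:118437314-118437593, minus strand: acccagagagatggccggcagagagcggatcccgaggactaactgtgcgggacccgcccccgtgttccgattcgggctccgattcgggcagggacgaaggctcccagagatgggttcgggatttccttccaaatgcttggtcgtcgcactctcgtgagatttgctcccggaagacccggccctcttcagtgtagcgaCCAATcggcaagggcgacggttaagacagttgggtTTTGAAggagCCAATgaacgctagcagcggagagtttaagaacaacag
Mki67, chr7:135716350-135716629, minus strand: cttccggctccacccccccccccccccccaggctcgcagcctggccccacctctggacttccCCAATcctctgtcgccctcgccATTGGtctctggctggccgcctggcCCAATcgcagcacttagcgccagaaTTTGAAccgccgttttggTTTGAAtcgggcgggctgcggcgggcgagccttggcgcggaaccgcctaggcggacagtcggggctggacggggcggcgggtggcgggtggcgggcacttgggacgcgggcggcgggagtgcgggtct
In Mcm5 and Mcm6 the capital runs include overlapping E2F words, in Mcm6 2 overlapping and 1 single, and no CHR word. Ccnb2, Cdc20 and Mki67 show CHR and CCAAT words and no E2F word, and Cdk1 shows all 3 kinds. In Mki67 both CHR words lie after its 3 CCAAT words, in Cdc20 the CHR word lies between 2 CCAAT words, and in Ccnb2 one CHR word lies before and one after the 3 CCAAT words. An E2F word was present in 5 of 12 replication members (41.7%), in 2 of 25 mitosis members (8%), and in 2.12% of the 27025 genes with a window. A CHR word was present in 3 of 12 replication members (25%), in 21 of 25 mitosis members (84%) and in 21.7% of all genes. A CHR word together with a CCAAT word stood in 19 of 25 mitosis members (76%) against 9.65% of all genes. None of the 3 windows of G1/S members held a match to any of the words. A match is a description of the letters in the window, and no match in Rrm2, Tk1 or Birc5 to the E2F or CHR words says only that these letters are absent there.

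**Figure D1:**
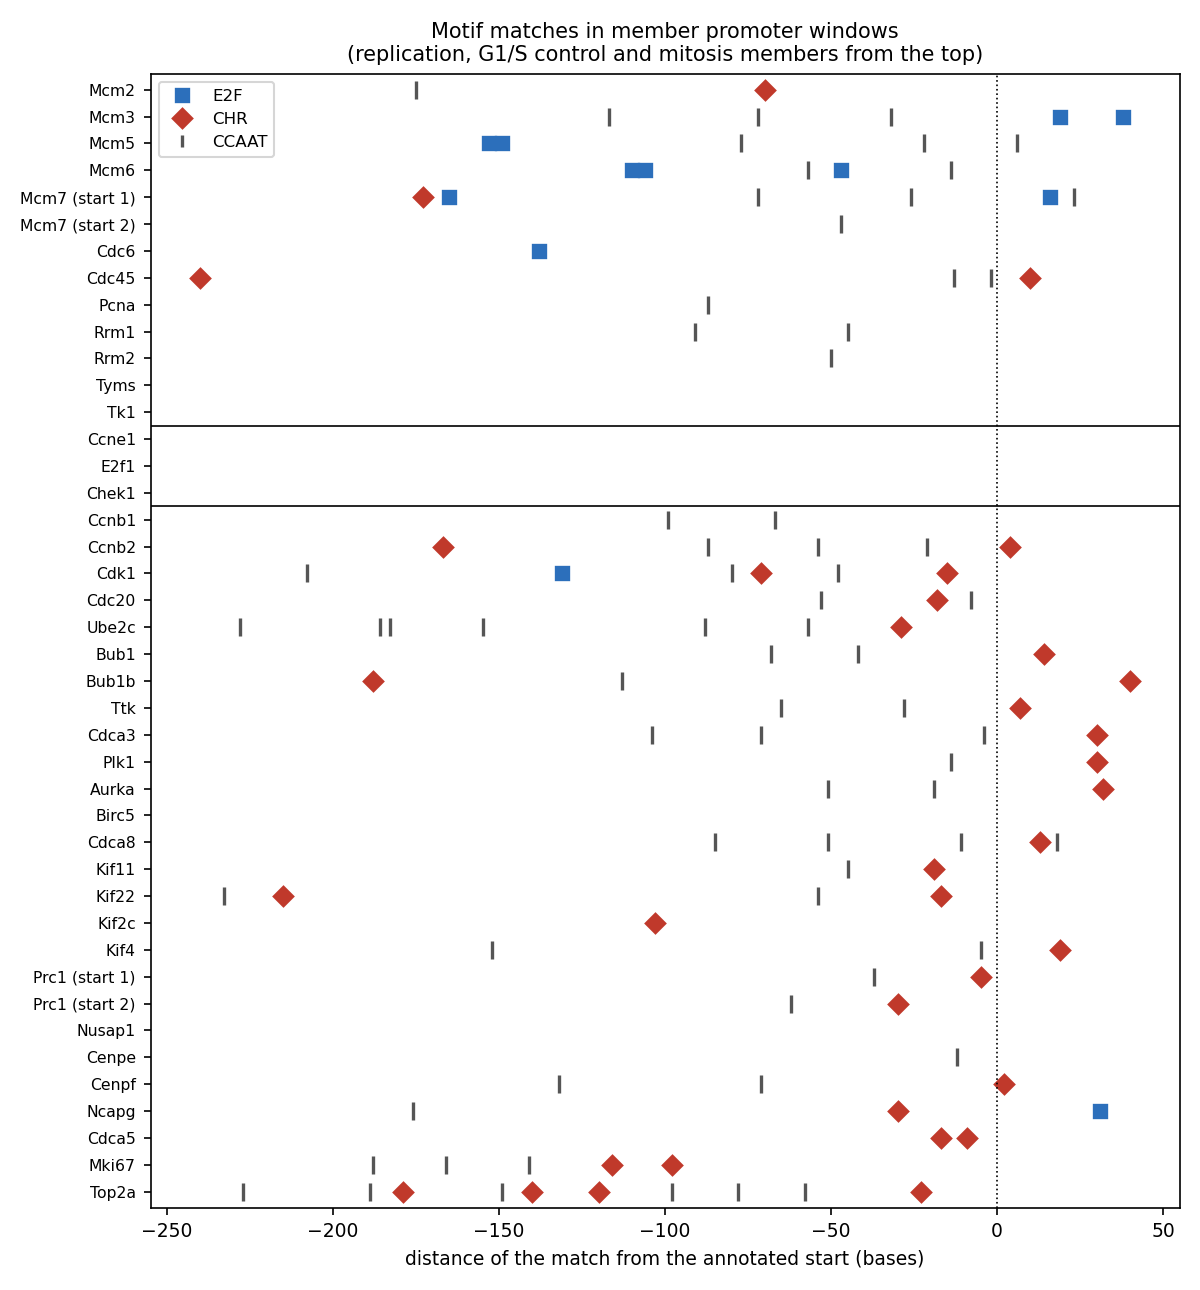
Matches to E2F words (squares), CHR words (diamonds) and CCAAT (bars) in the promoter windows of 40 members, by distance from the annotated start in bases, with replication members on top, then G1/S control and then mitosis members. Diamonds cluster around the start in the mitosis members, where 19 of 25 have a CHR word within 50 bases of it, against 1 of 12 replication members.

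The position of the CHR words also differed between the sets. A CHR word within 50 bases of the start was found in 19 of 25 mitosis members (76%), in 1 of 12 replication members (8.33%) and in 6.12% of all genes. A pair of CCAAT words whose starts lay 30 to 35 bases apart was found in 7 of 25 mitosis members (28%), 0 of 12 replication members and 1.85% of all genes. This spacing was noticed in the printed windows and then counted with those windows included, so the count is a description. Lists of other genes showed the same letters: of 25 other mitosis genes 17 (68%) held a CHR word and 2 (8%) an E2F word, and of 20 other replication genes 4 (20%) held a CHR word and 9 (45%) an E2F word.

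The arrays themselves bear on several results. The deposited signals had the same trimmed mean on every array, and array medians ran from 90.6 to 135.3. Markers of fat and of the mesothelium, the cell layer covering the mesentery, all had group means above the dim level, 7 of 7 detected genes in each list. One BALB/c control of run 2 (replicate 2) stood apart, with its best correlation to any other array at 0.889 against 0.975 to 0.989 for the rest, and a summed signal of the pancreatic acinar list of 734763 against 833.8 to 13960.3 in the other controls of its group. The 4 treated BALB/c arrays at day 18 also spread widely in that sum (1758.6 to 109367). One DBA array at day 18 (replicate 2) had a summed signal of 7 granulocyte precursor genes of 75797, against 2437.9 and 3873 in its group. The 3 treated F1 arrays were high and the 3 F1 controls low in Xist, the transcript of the inactive X chromosome, so treatment and sex cannot be told apart in the F1 response. Each group of runs 2 and 3 held arrays of both kinds. The ratio of the 3′ to the 5′ actin control probe set, a measure of RNA integrity, was lower in the treated than in the control group of each of the 5 comparisons, for example 1.88 ± 0.30 against 2.42 ± 0.28 in BALB/c at day 3 (SD, n = 3 each). The part of these differences in the results below was not tested, except where a value without an array is given.

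Most members were higher in treated than in control mesentery in all 5 comparisons. In BALB/c at day 3, 45 of 46 members rose and 0 fell, with a median log2 change of 2.35, and 42 of them rose at least 2-fold. Here and below, a member rose or fell if limma's adjusted p, over all 13016 genes, was under 0.05, and log2 changes are differences of log2(signal + 24.9) with their standard error. Of all genes tested 18.3% rose in that comparison. In the F1 at day 3, 38 members rose (median 1.25, against 18.6% of all genes), and in DBA at day 3, 39 rose (median 1.40, against 16.4%). At day 18, 42 members rose in BALB/c (median 1.31, against 21.7%) and 41 in DBA (median 1.52, against 22.4%), and no member fell in any of the 5 responses. Of all genes 17.2%, 18%, 13.4%, 22.2% and 25% fell in BALB/c, F1 and DBA at day 3 and in BALB/c and DBA at day 18. The median change over all genes tested was between -0.04 and 0.00 in these comparisons. In bulk tissue a larger number of cycling cells and more of these transcripts per cell cannot be told apart.

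The single arrays showed the same separation. Every treated array lay above every control for 44 members in BALB/c at day 3 (against 26.7% of all genes), 41 in the F1 (25.5%), 42 in DBA at day 3 (27.3%), 36 in BALB/c at day 18 (17.9%) and 39 in DBA at day 18 (28.6%). In all, 37 of the 46 members (80.4%) rose in all 5 responses, as did 8.93% of all genes. The mean over the 46 members of log2(signal + 24.9) was 9.35 ± 0.08 in treated and 7.02 ± 0.07 in control BALB/c arrays at day 3 (SD, n = 3 each). It was 8.74 ± 0.38 against 7.59 ± 0.05 in the F1, and 8.89 ± 0.22 against 7.49 ± 0.35 in DBA at day 3 (n = 3 each). At day 18 it was 8.51 ± 0.25 against 7.21 ± 0.28 in BALB/c (n = 4 each) and 8.86 ± 0.70 against 7.39 ± 0.21 in DBA (n = 3 each). No treated array overlapped a control of its strain and run in this mean.

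**Figure D2:**
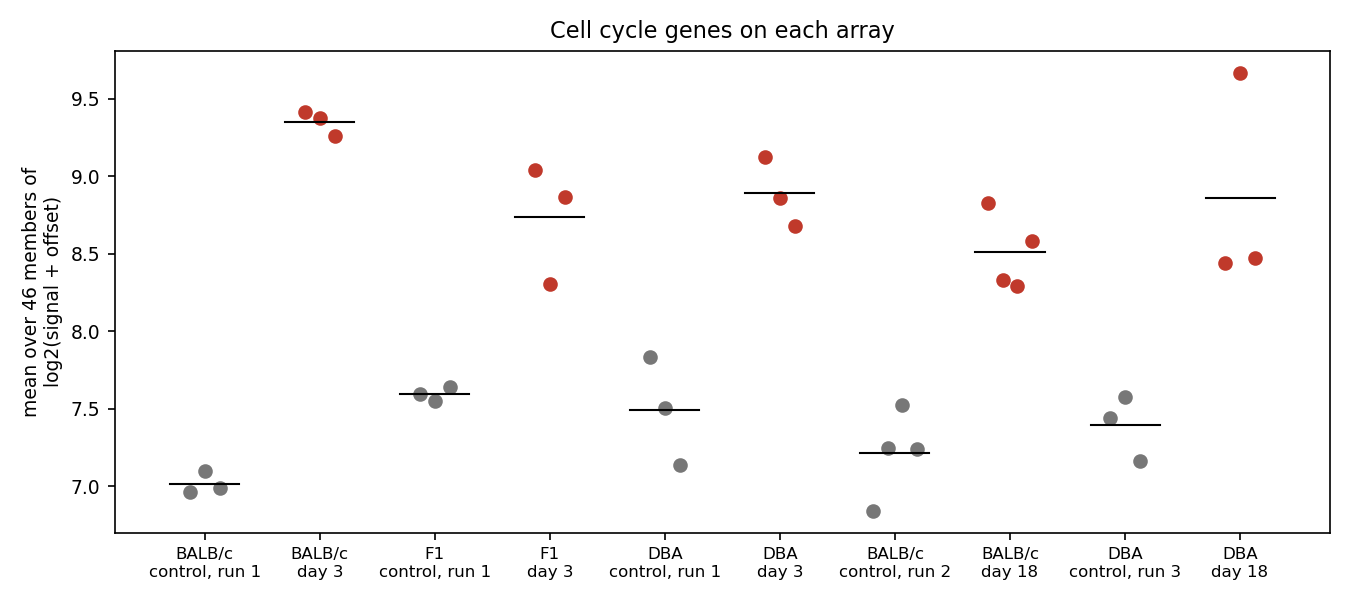
Mean over the 46 tested members of log2(signal + 24.9) on each of the 32 arrays (points; grey controls, red treated) with the group mean (line). Controls run from 6.84 to 7.83 and treated arrays from 8.30 to 9.67, and 1 DBA array at day 18 is the highest of all.

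Among the replication machinery, all 13 tested members rose in BALB/c at day 3, 11 in the F1, 11 in DBA at day 3 and 12 in each day 18 response. The largest changes belonged to genes of nucleotide supply. Tk1, thymidine kinase of the salvage route, rose by 3.58 ± 0.44 in BALB/c at day 3, from 60.4, 51.9 and 62.2 in the controls to 1074.8, 1069.6 and 786.2. Rrm2, the S-phase subunit of ribonucleotide reductase, rose by 3.39 ± 0.44, from 140.1, 126 and 126.1 to 1698.7, 1635 and 1498. Neither gene had overlapping groups in any of the 5 responses. Rrm1, the large subunit of the same enzyme, rose by 1.38 ± 0.21 in BALB/c at day 3 and by 0.77 to 1.03 in the other responses.

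The MCM2-7 proteins form the helicase that unwinds DNA at the fork, and all 6 of their genes rose in all 5 responses. Mcm5 (2.59 ± 0.33), Mcm6 (2.38 ± 0.37) and Mcm2 (2.09 ± 0.36) had the largest changes of these in BALB/c at day 3, and Mcm7 the smallest (1.20 ± 0.19). For Mcm5 the signals there were 1233.7, 1314.2 and 1026.6 in treated and 166.9, 157.1 and 207.7 in control arrays, and in BALB/c at day 18 they were 610.5 to 1013.3 against 214.8 to 347.2. In the F1, Mcm5 was 1142.3, 552.8 and 1111.2 against 273.9, 239.6 and 415.5, with 1 treated array well below the other two. Pcna, the sliding clamp of DNA polymerases, had a modest change with a small standard error: it rose by 1.11 ± 0.11 in BALB/c at day 3 and by 0.58 to 0.73 elsewhere. Its treated signals ran from 6630.8 to 9960.3 over the 16 treated arrays and its control signals from 4109.9 to 5380.1, with no overlap.

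Members that load or fire the helicase were less uniform. Cdc6, which loads MCM2-7 at origins, rose in 4 responses and in the F1 had a change of 0.85 ± 0.44 (adjusted p = 0.14, limma). Its control means were all below the dim level. Gins1, a subunit of the active helicase, rose in 4 responses, and in DBA at day 3 its change was 0.22 ± 0.19 (adjusted p = 0.442, limma). Cdc45, the third part of that helicase, rose in BALB/c at day 3 alone (1.34 ± 0.30), with changes of 0.10 to 0.44 in the other responses. For Tyms, thymidylate synthase, the only probe set of its own had signals of at most 84.3.

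Of the 4 G1/S members, Chek1, the kinase that restrains entry into mitosis when DNA is damaged, rose in all 5 responses (1.77 ± 0.23 in BALB/c at day 3, 0.64 to 0.94 elsewhere). Its treated signals were 230.7, 223 and 187.5 in BALB/c at day 3 against 44.7, 43.7 and 45.5 in controls. Ccne1, a cyclin that drives S-phase entry, rose in 3 responses, by 0.71 ± 0.27, 0.80 ± 0.24 and 0.68 ± 0.27 in BALB/c at day 3, BALB/c at day 18 and DBA at day 18. Ccne2, its relative, rose in BALB/c at day 3 alone (1.33 ± 0.27), and E2f1, a founding member of the E2F family, in BALB/c at day 3 (0.85 ± 0.25) and day 18 (0.61 ± 0.22). In the remaining comparisons the changes of these 3 genes ran from -0.15 to 0.62. The G1/S members therefore had the smallest median change of the 3 sets in every response, 1.09 in BALB/c at day 3 and 0.50 to 0.67 elsewhere, over 4 genes.

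Mitosis members made up most of the list, and 28 of 29 rose in BALB/c at day 3, 26 in the F1 and 27 in each of the other 3 responses. Mki67, whose product coats mitotic chromosomes and is the common histological marker of cycling cells, had the largest change of all members in BALB/c at day 3 (4.22 ± 0.45) and in BALB/c at day 18 (2.67 ± 0.39). Its signals in BALB/c at day 3 were 2510.1, 2191.4 and 2011.8 against 97.4, 88.3 and 104.1. In DBA at day 3 they were 1597.4, 1319.5 and 1043.3 against 318.1, 332.3 and 151.3, and in the F1 1485.8, 756 and 1411.3 against 404.7, 305.2 and 248.2. At day 18 they were 1705.7, 1068.5, 942.7 and 1181.7 against 81.9, 99.1, 371.5 and 228.2 in BALB/c, and 967.4, 3796.7 and 899.5 against 254.3, 382.5 and 162.2 in DBA. The groups did not overlap in any of the 5 comparisons, and the untreated BALB/c arrays of run 1 were the lowest and closest together of the run 1 controls.

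**Figure D3:**
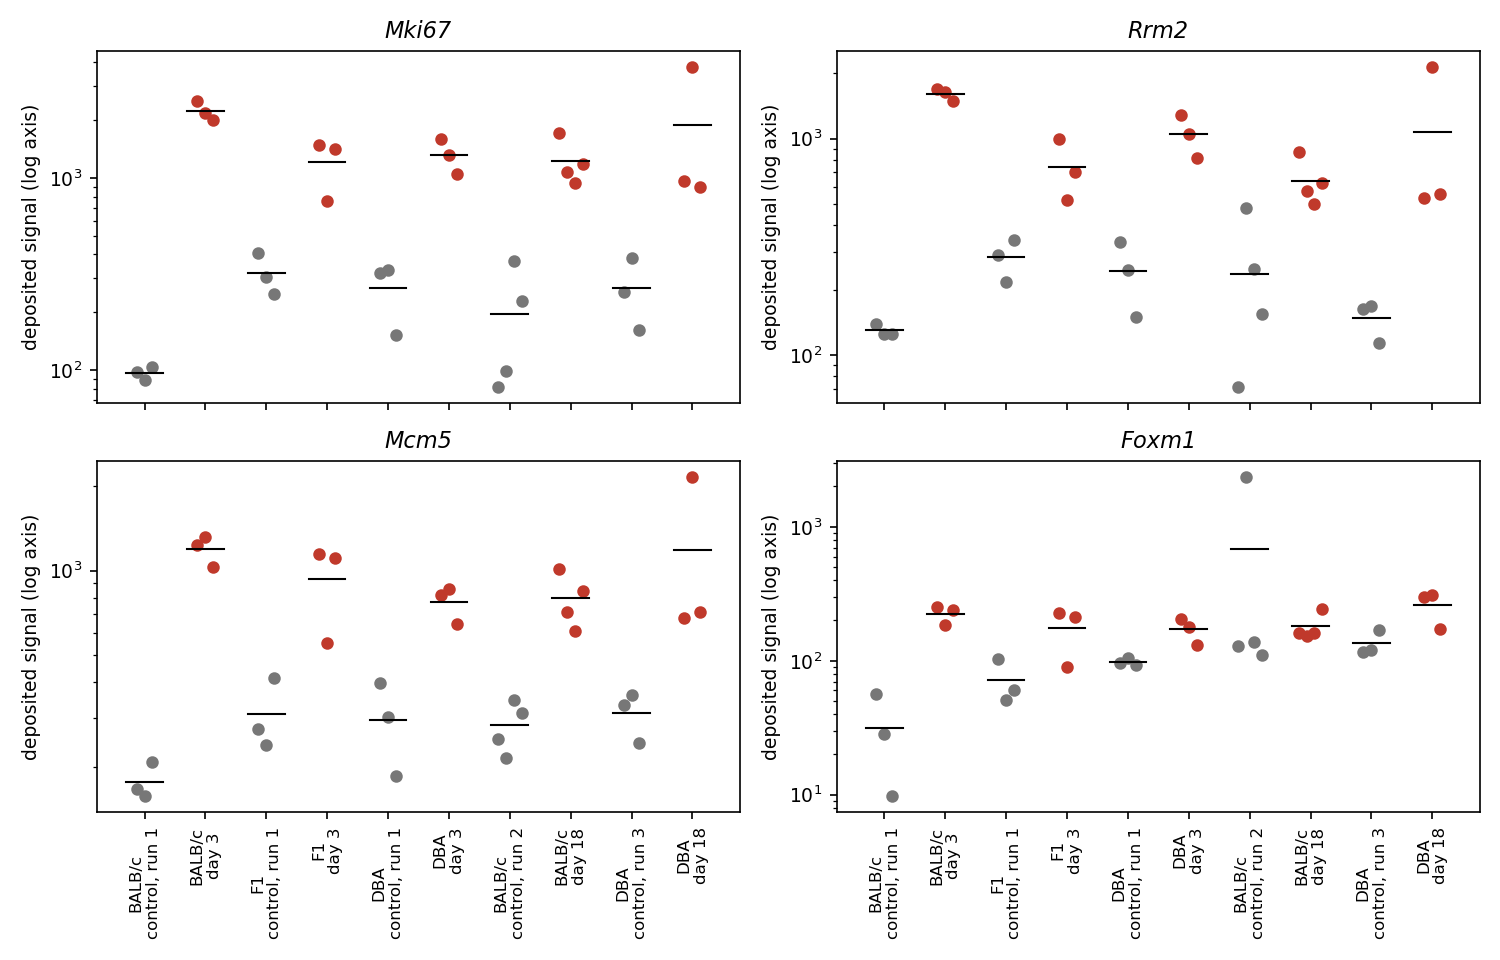
Deposited signal of Mki67, Rrm2, Mcm5 and Foxm1 on each array (points; grey controls, red treated; logarithmic axis) with the group mean (line). Mki67, Rrm2 and Mcm5 are higher in every treated array than in the controls of its strain and run, and Foxm1 has 1 BALB/c control array of run 2 at 2368.6 above all others.

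Among the cyclins and their kinase, Ccnb2, Ccna2 and Cdk1 rose in all 5 responses. Ccna2, the cyclin of S and G2 phases, was at 1271.9, 1189.5 and 1247.5 in BALB/c at day 3 against 101.2, 142.9 and 157.3, a change of 3.01 ± 0.29. Cdk1, the kinase that drives mitosis with cyclin B, rose by 2.93 ± 0.33 in BALB/c at day 3, 2.22 ± 0.28 in BALB/c at day 18 and 2.13 ± 0.33 in DBA at day 18, and by 1.34 ± 0.33 and 1.44 ± 0.33 in the F1 and DBA at day 3. Ccnb2, a B-type cyclin, rose by 3.38 ± 0.45 in BALB/c at day 3 and by 1.75 to 2.33 elsewhere.

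Foxm1, the forkhead factor of the G2/M wave, rose in BALB/c at day 3 (2.22 ± 0.63) and did not pass the test in the other responses. In BALB/c at day 18 its signals were 162, 153.7, 161.7 and 244.8 against 129.3, 2368.6, 137 and 110.6 in controls. The high control is the array rich in pancreatic transcripts. With all arrays the change was -0.57 ± 0.54 (adjusted p = 0.423, limma), and without that array it was 0.43 (adjusted p = 0.203, limma). Another probe set of Foxm1 was higher in all 5 responses when probe sets were tested singly, by 0.82 to 2.42.

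All 6 members of the spindle checkpoint and of mitotic exit rose in all 5 responses. Bub1, Bub1b and Ttk are checkpoint kinases, Cdc20 and Ube2c serve the anaphase-promoting complex that the checkpoint holds back, and Cdca3 is a trigger of mitotic entry. Ube2c (3.78 ± 0.38), Bub1 (3.59 ± 0.34) and Bub1b (3.49 ± 0.36) had the largest changes in BALB/c at day 3. Bub1b was at 412.3, 315.7 and 359.7 there against 8.9, 12.1 and 7.1, so its control level lies far below the dim level and the size of the change depends on the offset. Cdc20 had the largest change of any member in DBA at day 3 (2.44 ± 0.37), with 1219, 862.8 and 630.1 against 194.1, 135.7 and 104.2. The treated arrays of both genes were above all their controls in each response.

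All 5 members among the mitotic kinases and the chromosomal passenger complex also rose in all 5 responses. Birc5 (survivin) and Cdca8 (borealin), passenger subunits that place Aurora B on chromosomes, changed by 3.78 ± 0.35 and 3.42 ± 0.33 in BALB/c at day 3. The kinases Plk1 (2.15 ± 0.35), Aurkb (2.02 ± 0.38) and Aurka (1.85 ± 0.31) changed less in the same comparison. Birc5 had the largest change of all members in the F1 (2.14 ± 0.35), with 948.3, 499.3 and 866 against 164.4, 151.4 and 135.2. Bub1 had that place in DBA at day 18 (2.53 ± 0.34).

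Of 8 spindle motors and microtubule proteins, 6 rose in all 5 responses. The kinesins Kif22, Kif2c, Kif20a, Kif11 and Kif4 rose by 1.61 to 2.85 in BALB/c at day 3 and by 0.83 to 1.93 in the other responses, and Nusap1, a microtubule-bundling protein, rose by 3.01 ± 0.38 and by 1.42 to 2.00. Prc1, which bundles the midzone of the spindle, rose in 4 responses, and its change in the F1 was 0.80 ± 0.41 (adjusted p = 0.128, limma). Tpx2, an activator of Aurora A on spindle microtubules, passed the test in no response. Its brightest probe set gave changes from -1.03 to 0.26, and its signal ran from 185.5 to 711.2 in treated and from 334.1 to 913.8 in control BALB/c arrays at day 3. A pair of dimmer probe sets of the same gene gave 2.33 and 2.35 in BALB/c at day 3 and passed the test as higher in all 5 responses when tested singly. Tpx2 had 4 kept probe sets in all, so not every one is given here, and their mean changed by 0.74 in BALB/c at day 3. With array weights the brightest one passed as lower in BALB/c at day 3 (-1.34) and in the F1 (-1.12). It also passed as lower in BALB/c at day 3 without treated replicate 3 (-1.50) or control replicate 1 (-1.35), and in the F1 without control replicate 1 (-1.35). With controls pooled over runs it passed as lower in BALB/c at day 18 (-1.38, against -0.40 with its own controls). The call for Tpx2 therefore depends on which of its probe sets is read. Of 25 members with more than 1 kept probe set, 24 had all of them above 0 in BALB/c at day 3.

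All 6 centromere and chromosome members rose in all 5 responses. Apart from Mki67 they were Top2a, the enzyme that untangles sister chromatids, Cdca5 (sororin), which holds the sisters together, the kinetochore proteins Cenpe and Cenpf, and the condensin subunit Ncapg. In BALB/c at day 3, Cdca5 rose by 3.29 ± 0.41, Top2a by 3.12 ± 0.31, Cenpf by 2.98 ± 0.33, Ncapg by 2.54 ± 0.33 and Cenpe by 2.00 ± 0.40. Top2a was steady over the other responses (1.83 to 1.99), with signals in DBA at day 3 of 1002.3, 836 and 718.5 against 252.4, 242.8 and 119.3.

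**Figure D4:**
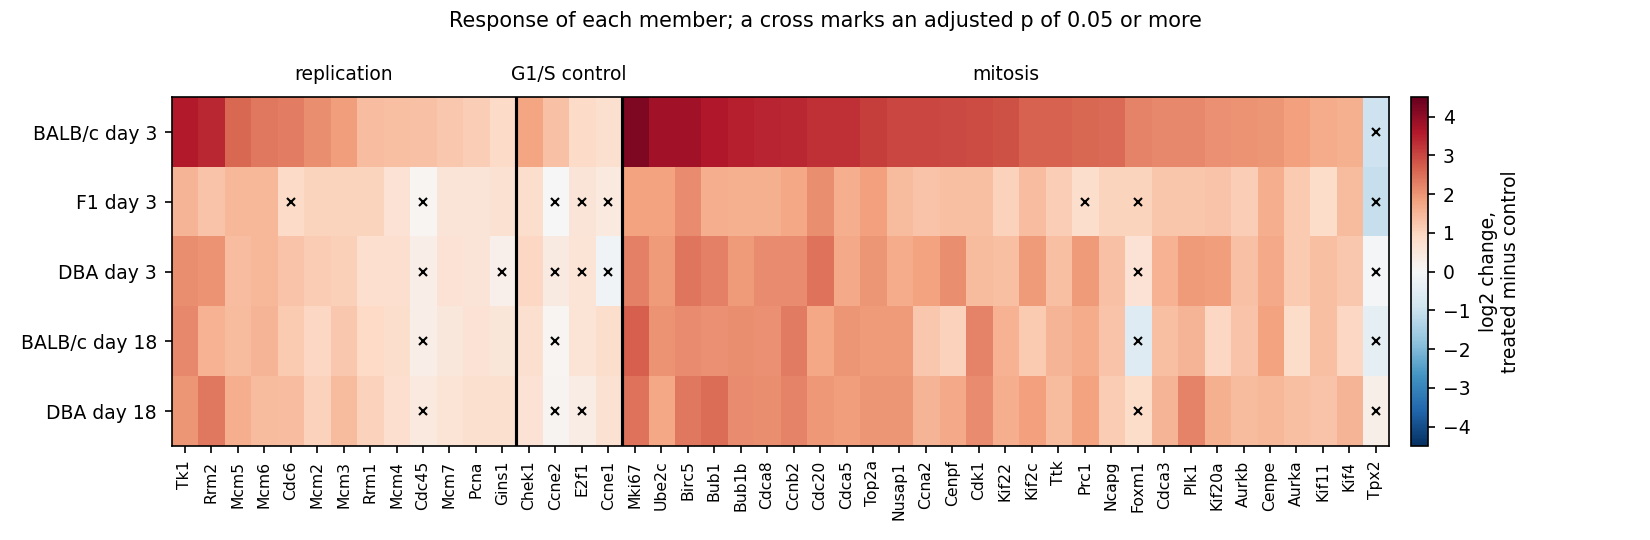
log2 change (treated minus control, colour) of each of the 46 members in the 5 responses, ordered by set and by the BALB/c day 3 change, with a cross where the adjusted p was 0.05 or more. The BALB/c day 3 row has 1 cross (Tpx2), and most other crosses stand at Cdc45, Ccne2, E2f1, Ccne1, Foxm1 and Tpx2.

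Mitosis members changed more than replication members in each response. The median log2 changes of mitosis and replication members were 2.85 and 1.88 in BALB/c at day 3, 1.34 and 0.99 in the F1, 1.80 and 1.07 in DBA at day 3, 1.57 and 0.95 in BALB/c at day 18, and 1.73 and 1.04 in DBA at day 18. On single arrays, set against the mean of their own controls, the median change of the mitosis members was larger than that of the replication members on all 16 treated arrays, by 0.38 to 1.16. The same difference on the control arrays ran from -0.20 to 0.26. Each control was set against a mean that includes it, so these values lie around equal change by construction and show only the spread. These medians are descriptions over 29 and 13 genes and carry no test. The mitosis members were also dimmer: in BALB/c controls of run 1, 21 of 29 mitosis members and 3 of 13 replication members averaged below the dim level. The part of this difference in brightness in the larger changes was not tested.

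**Figure D5:**
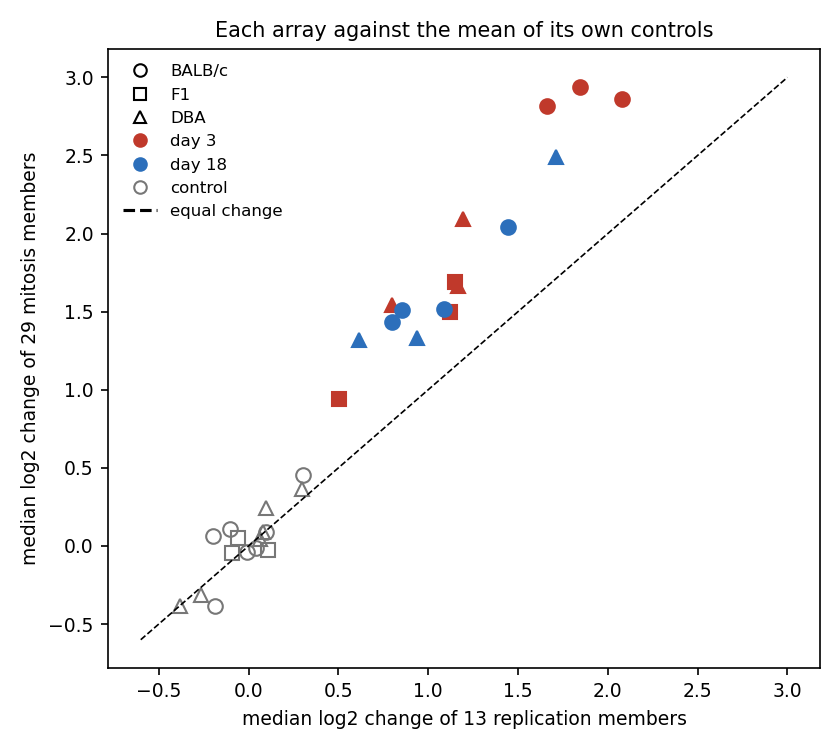
Median log2 change of 13 replication members (horizontal) and 29 mitosis members (vertical) on each array, relative to the mean of the controls of the same strain and run (filled treated, open controls; shape gives the strain). All 16 treated arrays lie above the dashed line of equal change. Controls scatter around it near 0 by construction, since each enters the mean it is set against.

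Within the same group, members rose and fell together from array to array. Over the 32 arrays, after subtracting each group's mean, the median correlation of 1035 pairs of members was 0.60, and it was 0.67 among replication members, 0.62 among mitosis members and 0.61 between both sets. Points share arrays and scaling, no correlation of other genes is given for comparison, and no test was made. The mean over the members spread most in DBA at day 18 (SD 0.70, n = 3), where replicate 2 was at 9.67 against 8.44 and 8.47. The part of that array in these correlations was not tested. Tpx2 (-0.01), Foxm1 (0.16) and Cdc45 (0.23) had the lowest median correlation with the other members. In the F1 at day 3, replicate 2 was the low array for the members (mean 8.31, against 9.04 and 8.87). It also had the highest summed neutrophil signal of its group (25182.3, against 8699.2 and 11065.7).

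A few members differed between untreated groups of run 1. The 3 F1 controls were low in Xist and the 3 BALB/c and 3 DBA controls high, so strain and sex cannot be told apart in either comparison with F1 controls. In DBA against BALB/c controls of run 1, 3 of 46 members were higher, a share near the 4.03% of all genes. They were Cdk1 (1.12 ± 0.33, adjusted p = 0.0322, limma), Bub1b (1.28 ± 0.36, adjusted p = 0.0259) and Kif22 (1.13 ± 0.30, adjusted p = 0.0159). Cdk1 was at 453.4, 422.6 and 256.5 in DBA and at 143.6, 160.7 and 163.4 in BALB/c controls, with no overlap. In F1 against BALB/c controls, 4 members were higher (1.5% of all genes): Cdc45 (1.13 ± 0.30), Bub1b (1.45 ± 0.36), Kif22 (1.14 ± 0.30) and Cenpf (1.39 ± 0.33). The median difference over the members was 0.45 for DBA and 0.57 for F1, each against BALB/c. In F1 against DBA controls 0 members passed limma's test and 1 had an unadjusted p under 0.05, the ordinary linear model also gave 0, and 0.707% of all genes were higher. Both comparisons with BALB/c share its 3 controls. Leaving out 1 array at a time gave 0 members for DBA against BALB/c without BALB/c control replicate 3 or DBA control replicate 1, 1 without BALB/c control replicate 2 or DBA control replicate 2, and 5 without DBA control replicate 3. For F1 against BALB/c it gave 0 without F1 control replicate 1 or 2 and 1 without any of the other 4 arrays. In controls of the other runs the mean over the members was 7.21 ± 0.28 in BALB/c (n = 4) and 7.39 ± 0.21 in DBA (n = 3).

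Responses were then compared with each other. The BALB/c response at day 3 was the largest of the 5 for 43 of 46 members. Against the DBA response at day 3 it was larger for 45 of 46 members (median difference 0.91), yet 0 members passed limma's test for that difference, with 26 at an unadjusted p under 0.05 and 0 by the ordinary linear model (0.492% of all genes passed). The lowest adjusted p was that of Kif22 (0.114). The F1 response was smaller than that of BALB/c for all 46 members (median -1.22), with 0 passing limma's test, 31 at an unadjusted p under 0.05 and 0 by the ordinary linear model (0.238% of all genes). The lowest adjusted p values were those of Kif22 (0.0567) and Ccna2 (0.0571). When the arrays of the 4 groups compared were fitted alone, 16 members passed for BALB/c against DBA and 18 for F1 against BALB/c. With array weights 19 and 22 passed. These calls therefore depend on the model fitted, and array weights change the group means as well as the spread. The share of all genes is not given for these fits or for the unadjusted p, so those counts describe the members only. In the F1 comparisons strain and sex cannot be told apart. All these differences contain the lower BALB/c controls as well as the higher treated BALB/c arrays.

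The F1 and DBA responses at day 3 differed by a median of -0.25 over the members, with 0 passing limma's test, 0 at an unadjusted p under 0.05 and 0 by the ordinary linear model (2.01% of all genes passed). BALB/c and DBA at day 18 differed by a median of -0.10, with 0, 0 and 0 in the same order (1.01% of all genes). These 2 responses come from different runs, so strain and run cannot be told apart there. Within BALB/c, the day 18 response was smaller than the day 3 response for 44 of 46 members (median -1.10), and 2 members passed the test, against 0.131% of all genes that were lower. These were Ccna2 (-1.78 ± 0.38, adjusted p = 0.0299, limma) and Cenpf (-1.94 ± 0.44, adjusted p = 0.0478). Cenpf was at 507.8, 561.5 and 505.8 in treated BALB/c arrays at day 3 and at 358.2, 258, 170.2 and 286.2 at day 18, and its controls were at 46, 30.8 and 60.4 in run 1 and 68.8, 173.4, 106.4 and 124 in run 2. Over the alternatives the adjusted p in limma ran from 0.000488 to 0.132 for Ccna2 and from 0.00419 to 0.0917 for Cenpf. Both calls were lost under quantile normalization (adjusted p = 0.0664 and 0.0646 in limma), median centring, the ordinary linear model and the mean over probe sets. They were also lost without any 1 of 9 arrays, namely treated day 18 replicates 2 to 4, run 2 control replicate 3, treated day 3 replicates 1 to 3 and run 1 control replicates 1 and 2. Cenpf was lost as well without run 2 control replicate 2 or 4 or run 1 control replicate 3. The count was 5 without run 2 control replicate 1 and 1 without run 1 control replicate 3. The times were run under different codes, so time and run cannot be told apart. In DBA, day 18 against day 3 gave a median difference of 0.07, with 0 members passing limma's test, 1 at an unadjusted p under 0.05 and 0 by the ordinary linear model (4.18% of all genes passed).

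The DBA response at day 18 rests in part on 1 array. Replicate 2 had a mean over the members of 9.67, the highest of all 32 arrays, against 8.44 and 8.47 in its group. Top2a was at 554.4, 1809.2 and 647.6 in the 3 treated arrays, Rrm2 at 532.8, 2144.4 and 556.7, and Cdk1 at 729.2, 1952 and 595.7. On the same array Mpo and Elane, enzymes of the granules that promyelocytes make, were at 10133.2 and 6959.2, against 88.6 and 301.1 for Mpo and 105.8 and 163.3 for Elane on the other two. Without this array 34 members rose (of all genes 18.8%), with a median of 1.13 in place of 1.52. The median was then 0.72 for replication and 1.31 for mitosis members, and Mcm2, Mcm7, Cdc6, Chek1, Ccne1, Aurkb and Ncapg no longer passed the test.

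Other cell cycle genes were read from lists that hold no members. Of all genes tested 18.3%, 18.6% and 16.4% rose in BALB/c, F1 and DBA at day 3, and 21.7% and 22.4% in BALB/c and DBA at day 18. Of 27 other mitosis genes tested, 27 rose in BALB/c at day 3, 19 in the F1, 25 in DBA at day 3, 25 in BALB/c at day 18 and 25 in DBA at day 18, and 0 fell, with medians of 1.90, 1.06, 1.27, 1.13 and 1.33. In BALB/c at day 3 the largest were Pttg1 (securin, 3.38 ± 0.29), the kinase Pbk (3.14 ± 0.32), the kinetochore gene Nuf2 (3.14 ± 0.39) and the kinase Melk (2.91 ± 0.38). Of 22 other replication genes, 16, 8, 12, 12 and 12 rose in the same order and 0 fell, with medians of 1.04, 0.46, 0.64, 0.68 and 0.61. The largest there were Uhrf1, which guides maintenance of DNA methylation (3.13 ± 0.42), DNA ligase Lig1 (2.23 ± 0.24), the licensing factor Cdt1 (2.23 ± 0.22) and Mcm10 (2.20 ± 0.27). The lists gave the same order of medians as the members, with mitosis above replication in all 5 responses. They were read on the same arrays and chosen with earlier results of these data known, so this order is a description and no independent support.

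Genes that act before S phase were counted in the same way, against 18.3% of all genes that rose and 17.2% that fell in BALB/c at day 3. Of 8 D cyclins and G1 kinases, 4 rose and 1 fell there (median 0.48). Ccnd2, a D-type cyclin, fell in all 5 responses (-1.11 to -0.76), from a mean of 11768.1 to 6091.5 in BALB/c at day 3. Cdk4, its partner kinase, rose in all 5 (0.65 to 1.07), Cdk6 in 4, and Ccnd1 (0.73 ± 0.17) and Cdk2 (0.74 ± 0.15) rose in BALB/c at day 3. Of 13 inhibitors of the cycle, 3 rose and 5 fell in BALB/c at day 3 (median -0.35), and with so few genes these counts are a description of the list. Cdkn1a (p21) rose in 4 responses, most in the F1 (2.32 ± 0.31), and Rbl1 (p107), a retinoblastoma relative that E2F itself induces, rose in all 5 (0.72 to 1.18), while Cdkn1c (p57) fell in all 5 (-1.30 to -0.57). Cdkn2c (p18) fell in 4 responses, for example from a mean of 10159.9 to 5008.7 in BALB/c at day 3, and Rb1 fell in 4. Cdkn2d (p19) rose in 4 (0.73 ± 0.19 in BALB/c at day 3), and Ccng2 fell in BALB/c at day 3 (-0.65 ± 0.24) and in DBA at day 18 (-0.68 ± 0.24).

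Of 14 E2F and MuvB genes, 4 rose and 1 fell in BALB/c at day 3 (median 0.18), beside the 18.3% and 17.2% of all genes. E2f8, an atypical E2F that represses the S-phase wave late in the cycle, had the largest change (3.17 ± 0.37), from a mean of 13.1 to 316.5, and rose in all 5 responses, as did E2f2 (1.79 ± 0.34 in BALB/c at day 3). E2f7, the relative of E2f8, rose in BALB/c at day 3 (1.52 ± 0.31) and day 18 (0.71 ± 0.26), and Myc in 4 responses. Tfdp2, a dimerisation partner of E2F, fell in BALB/c (-0.69 ± 0.24) and the F1 (-0.85 ± 0.24) at day 3. Of the MuvB core genes, Lin9 and Lin37 passed the test in no response (changes from -0.39 to 0.34), Lin54 rose in BALB/c at day 18 (0.55 ± 0.13) and Lin52 fell in DBA at day 18 (-0.63 ± 0.24).

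Markers of other cells also differed between treated and control arrays. Summed signals were above all controls of the same strain and run in all 5 comparisons for 5 lists. Those of 11 monocyte and macrophage genes ran from 56861.9 to 99017.6 in treated and from 22252.3 to 33997 in control arrays, and those of 5 neutrophil genes from 8699.2 to 62136.1 against 300.9 to 8057.7. The 7 granulocyte precursor genes ran from 845.8 to 75797 against 415.4 to 2047.1, so their ranges overlapped across strains and runs. The 10 T and NK cell genes ran from 965.7 to 4686.3 against 567.1 to 1598.2, which also overlapped across strains and runs, with Cd4, Cd8a and Cd8b1 below the dim level in all 3 treated groups of day 3. The 4 germinal centre B cell genes ran from 448.2 to 996.5 against 210.8 to 497.3, and Gcsam and Rgs13 of that list averaged below the dim level in every group. S1pr2 had the highest mean of that list in every group and rose in all 5 responses (1.04 to 1.39). Mef2b of the same list fell in DBA at day 3 (-1.02) and rose only in DBA at day 18 (0.61), so the sum mainly reads S1pr2. Plasma cell markers (8 genes) were above all controls in 4 comparisons and overlapped in BALB/c at day 18, where the pancreas-rich control was at 67171.1. Xbp1 of that list had group means of 10400.7 to 21743.6 and passed the test in no response. Mzb1 and Sdc1 rose in all 5, and Irf4 fell in DBA at day 3 (-1.51). Adipocyte markers (7 genes) were below all controls in 4 comparisons and overlapped in DBA at day 3, over ranges of 22570.8 to 92853.7 against 72101.3 to 164528. The other 7 lists (B cell, endothelial, erythroid, fibroblast, intestinal, mesothelial and pancreatic acinar) overlapped in 2 to 4 of the 5 comparisons. A sum can hide opposite changes. In the endothelial list Lyve1 had changes of 0.41 to 1.61, while all its other genes had negative changes in every response, and Kdr and Emcn fell in all 5. Which of these cells carry the cell cycle transcripts was not tested.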

How the data were processed

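Total RNA of mesentery was labelled and hybridised to 1 array per sample. The authors deposited 1 intensity per probe set and array, on a linear scale; per the submitters' processing notes they come from GCOS and MAS5, versions not given. The series text names an ANOVA in Partek, which was not repeated. The deposited signals were used without further normalization, 24.9 (their 25th percentile) was added, and log2 values were tested with limma 3.58.1 in R 4.3.3. One model of 10 groups with a variance trend was fitted to 13016 genes, and p-values were two-sided and adjusted by Benjamini-Hochberg over all of them. In the platform annotation 34958 of 45101 probe sets had a single symbol, 932 had more than 1 and named no gene here, and 9211 had no symbol. The brightest kept probe set stood for a gene. The number of arrays limits the precision. The members and lists were chosen with earlier results of these data known. Any member could be named; of each other cell cycle list, all genes called in a direction were named if 4 or fewer, otherwise the 4 with the largest change. Lin9, Lin37, Lin52, Lin54, Mpo and Elane were named after their values were seen. The model was tested on simulated data. Alternatives changed the offset, filter, scaling, controls, variance model, array weights and probe set rule, or left out 1 array.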

Additional observations from a re-analysis of the deposited data

Results flagged for a closer look

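In groups of 4 arrays, 8 of 94 sets of values had an extreme array beyond Dixon's critical value, and chance flags about 1 in 20 such sets. On the scale of log2(signal + 24.9), 4 of them were BALB/c control replicate 2 of run 2, the array rich in pancreatic transcripts. It was highest for Foxm1 (11.22), Ccne2 (7.17) and Tpx2 (7.75) and lowest for Rrm1 (9.10). Bub1 was lowest in BALB/c control replicate 1 of run 2 (5.46). Among treated BALB/c arrays at day 18, replicate 1 was highest for Mcm2 (9.70) and Kif4 (7.33), and replicate 4 for Foxm1 (8.08).

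The BALB/c response differed between day 18 and day 3 for Ccna2 (-1.78) and Cenpf (-1.94), by limma's test of the difference itself.

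A probe set shared by Tyms and its pseudogene was not used, since it names more than 1 gene. Its mean signal was 687.2 in treated BALB/c arrays at day 3 against 273.6 in their controls, 493.4 against 286.2 in the F1, 604.4 against 302.8 in DBA at day 3, and 487.7 against 357.3 in BALB/c at day 18. In DBA at day 18 it was 562.3 against 382.7, with arrays that overlapped (407.5 to 837.2 against 336.6 to 418.5). These means were not tested.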

How the results depend on the processing

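In the 5 responses, members tested singly kept direction and side of the threshold in 2599 of 2655 values under the alternatives, with 31 losing and 22 gaining a call and 3 reversed. Leaving out 1 array kept 1396 of 1472, with 71 lost, 5 gained and 0 reversed. The other 9 comparisons are given as counts of members called. With the mean over kept probe sets Tpx2 reversed, to 0.74 at day 3 and 0.62 at day 18 in BALB/c, and to 0.71 in DBA mice at day 3. A filter at 5 times the dim level tested fewer members, so its counts are not out of 46 and cannot be read as lost calls. With it 24, 23, 24, 24 and 24 were called in BALB/c, F1 and DBA at day 3 and BALB/c and DBA at day 18. Leaving out 1 array gave 43 to 45, 31 to 39, 34 to 40, 38 to 42 and 34 to 41.

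The excess of the mitosis over the replication median moved with an offset of 1 (1.31, 0.50, 0.94, 0.95 and 0.95 in the same order) and with a floor in place of the offset (1.22, 0.51, 0.95, 0.90 and 0.96). With the mean over probe sets it was 0.48 in the F1, and at day 18 it was 0.47 in BALB/c and 0.38 in DBA. Leaving out 1 array, chosen after seeing the data, gave 0.48 to 0.76 in BALB/c at day 18.

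DBA against BALB/c controls gave 5 members with an offset of 1, 6 in a separate fit, 8 with array weights and 0 to 5 without 1 array. F1 against BALB/c controls gave 2 with the stricter filter, quantile normalization, median centring, the ordinary linear model or the mean over probe sets, 11 in a separate fit, 13 with weights and 0 to 1 without 1 array. F1 against DBA controls gave 1 with weights. For the responses, BALB/c against DBA at day 3 gave 16 in a separate fit and 19 with weights, and F1 against DBA gave 1 with weights. F1 against BALB/c gave 2 with an offset of 1, 3 with controls pooled over runs, 18 in a separate fit, 22 with weights and 0 to 2 without 1 array. BALB/c at day 18 against day 3 gave 1 without a filter, in a separate fit, without the variance trend or with the mean over probe sets, 0 with quantile normalization, median centring or the ordinary linear model, 13 with pooled controls, 23 with weights and 0 to 5 without 1 array. DBA at day 18 against day 3 gave 1 with pooled controls. The cause was not tested, and the share of all genes called under these settings is not given, so the counts describe the members only. No paired analysis was possible because the labels give the groups no shared replicate numbers. Signals near background limit the size of changes for members whose controls lay below the dim level.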
